A study of Mus musculus with 18 samples.

Results

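A base editor whose deaminase had been inactivated, labelled catalytic mutant, was compared with nCas9, the Cas9 nickase that base editors are built on, in RN2, a mouse line of acute myeloid leukemia driven by MLL-AF9 and NrasG12D. The 6 libraries of these groups, 3 each, were chosen by their labels from the 18 libraries of the series, and the comparison covers all 14985 genes that passed the filter on low counts. It addresses what is left of a base editor's mark on gene expression once the deaminase cannot act.

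A cytosine base editor joins a nicking Cas9 to a cytidine deaminase of the APOBEC1 family, which turns cytosine into uracil. APOBEC1 is by nature an RNA-editing enzyme that also binds AU-rich RNA, and its deaminase activity needs a catalytic glutamate. Among the pathways described here, the integrated stress response works through phosphorylation of eIF2, which slows general translation while favouring translation of ATF4. ATF4, with partners such as C/EBP-gamma, then activates genes for amino acid synthesis, amino acid transport and transfer RNA charging. In myeloid leukemia cells MYC keeps ribosome production high, and C/EBP-epsilon and PU.1 steer granulocyte and monocyte maturation.

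The catalytic mutant cells carried an editor with the evoA1 deaminase, and the headers of their count columns add E63A. The intact BE cells carried the active editor, the seBE cells carried a small-molecule-controlled editor, and the nCas9 cells carried the nickase with no evoA1. All cells were transduced, given as WT in genotype, and sorted on day 5. Intact BE and seBE cells received 1 nM rapamycin or vehicle for 24 h. For the catalytic mutant and nCas9 the sample labels also give vehicle for 24 h, whereas the treatment protocol names vehicle for intact BE and seBE alone. Titles number 3 biological replicates per group and nowhere state that separate transductions or cultures gave rise to them, so p-values here reflect only how far these particular libraries scattered. Each group is 1 construct in 1 cell line, and no construct transcript was analysed here, so construct levels are not known.

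Total counts were 13835979 to 18924153 in the catalytic mutant and 15565680 to 20285241 in nCas9. Replicate 2 of nCas9 stood apart from the other 17 libraries on the second principal component, at 62.98 against -24.5 to 21.5. Catalytic mutant replicate 3 was unusual in another way. The gene most abundant over the series made up 0.15% of this library, where every remaining library held 1.2 to 3.0%. Scatter between replicates, as chi-square per degree of freedom, was 38.3 and 39.3 for the pairs with this library. That most abundant gene was kept in these values, so its low share here raised them, by an amount not separated. Catalytic mutant replicates 1 and 2 gave 10.4, and the nCas9 pairs 8.67 to 13.7. Leukemia markers were present, as all 8 listed passed the filter. The lymphocyte markers summed to 0.145 to 0.686 CPM (counts scaled to a common library size) in the catalytic mutant and 0 to 0.897 CPM in nCas9. Erythroid markers summed to 223 to 245 CPM in the catalytic mutant and 237 to 262 CPM in nCas9, and megakaryocyte markers to 12.6 to 16.7 and 13.7 to 15.5 CPM. Mast cell and basophil markers summed to 280.4 to 313 CPM in the catalytic mutant and 248 to 282 CPM in nCas9, and fibroblast and endothelial markers to 261 to 274 and 192 to 248 CPM. These sums cover the markers that passed the filter, which were few. They were 1 of 8 for lymphocytes, 2 of 8 erythroid, 2 of 6 megakaryocyte, 4 of 8 mast cell and basophil, and 2 of 8 fibroblast and endothelial. Only 1 erythroid and 1 megakaryocyte marker averaged 5 CPM or more in the higher group. Most of the fibroblast and endothelial sum came from Pecam1. The part of such cells in the results was not tested. Pecam1, chosen after its values were seen, is an endothelial marker that leukemia cells can express and was called higher in the catalytic mutant, at 262, 245 and 245 CPM against 216, 177 and 230 CPM in nCas9 (adjusted p = 0.0313; 0.0771 with the length and GC trend described below removed). In bulk RNA, fewer cells of a type and less RNA per cell cannot be told apart.

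Differences between the catalytic mutant and nCas9 were many and mostly small. At an adjusted p under 0.05, 644 genes (4.3% of those tested) were called, 335 higher (2.24%) and 309 lower (2.06%) in the catalytic mutant. Their median size was 0.38 on the log2 scale, and 36 changed at least 2-fold. The libraries of the groups did not overlap in 618 of the 644, where 21.3% of all tested genes showed no overlap (11.2% higher, 10.1% lower). The median log2 fold change of all tested genes was -0.0035.

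**Figure D1:**
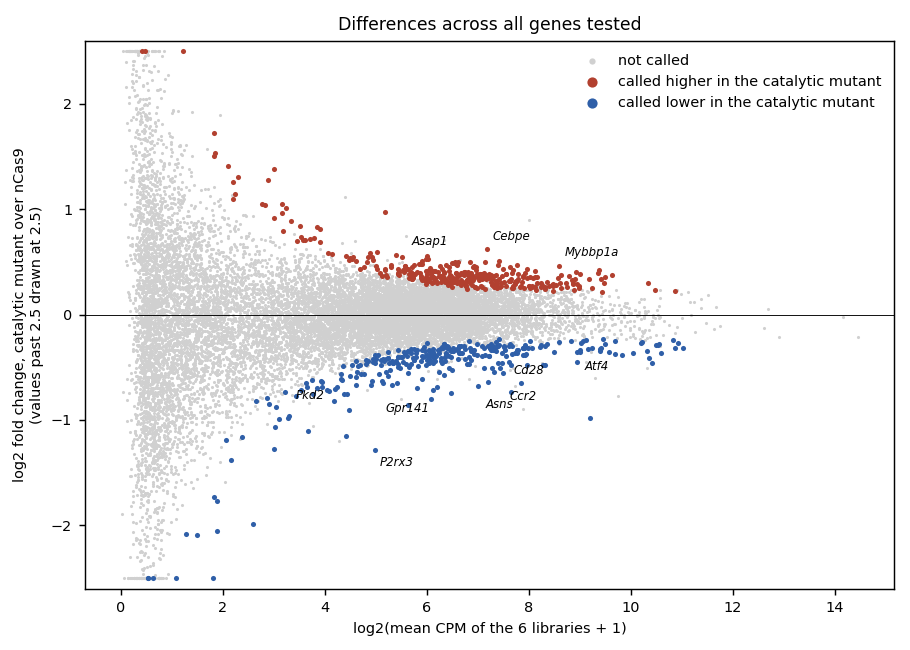
Log2 fold change of the catalytic mutant over nCas9 (y) against log2 of the mean CPM of the 6 libraries plus 1 (x) for 14985 genes, each point a gene; red points are called higher and blue points lower, and values past 2.5 are drawn at 2.5. Among well-expressed genes the calls form narrow bands on each side of 0, with Cebpe, Asap1 and Mybbp1a on the upper side and P2rx3, Gpr141, Asns, Ccr2, Cd28 and Atf4 on the lower.

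The calls depended on the libraries used, and on replicate 2 of nCas9 most. Leaving out 1 library at a time gave 380, 450 and 407 calls without catalytic mutant replicates 1, 2 and 3, and 408, 122 and 748 calls without nCas9 replicates 1, 2 and 3. Without nCas9 replicate 2 all 644 genes kept their direction, with a median size of 0.35, and 115 kept their call. Direction could hardly turn, since the libraries did not overlap in 618 of the 644, so its keeping says little about stability. Genes called in all 6 of these fits as well as with every library numbered 94 (0.627%), of which 92 also averaged 5 CPM or more on the higher side with no overlap, 51 higher and 41 lower.

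**Figure D2:**
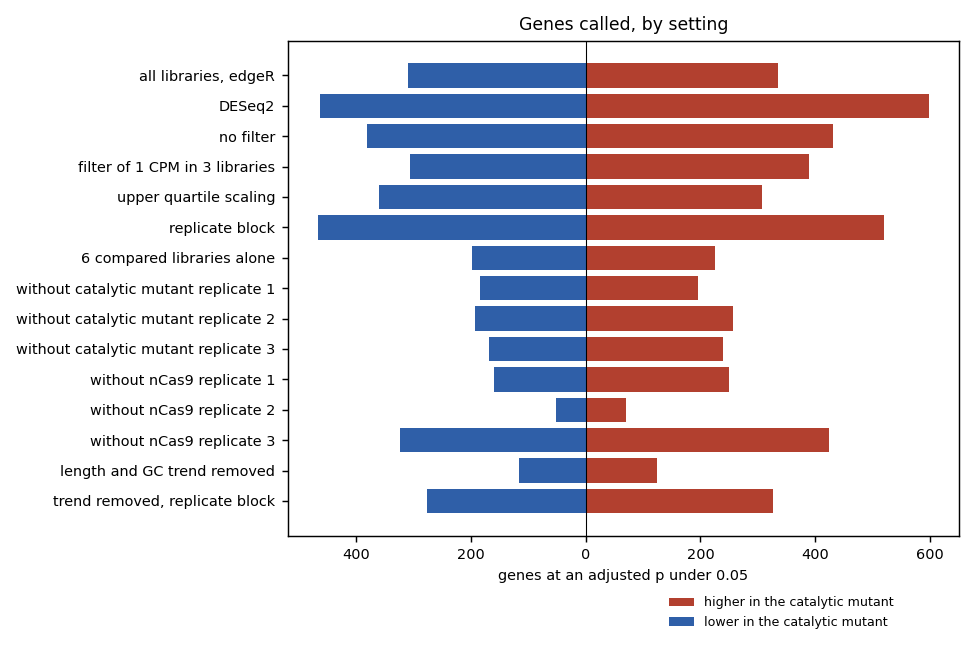
Number of genes called at an adjusted p under 0.05 in the catalytic mutant against nCas9 (x), higher in red to the right and lower in blue to the left of 0, for each way of fitting the counts (y). The full set of libraries gave 335 higher and 309 lower, the fit without nCas9 replicate 2 gave 70 higher and 52 lower, and removal of the length and GC trend gave 124 higher and 117 lower.

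The direction of a gene's difference went with the base composition of its transcript. Genes called higher in the catalytic mutant had a median GC content of 55.7%, genes called lower 43.5% and all tested genes 49.3%. In the tenth of genes with the lowest GC content 0 were called higher and 70 lower, with a median log2 fold change of -0.17. In the tenth with the highest GC content 105 were called higher and 0 lower, with a median of 0.19. The groups between ran in order from -0.11 to 0.13. The medians at the ends were -0.15 and 0.19 without nCas9 replicate 2, and each catalytic mutant library set against the nCas9 mean gave negative medians at the low end (-0.22, -0.17 and -0.11) and positive ones at the high end (0.19, 0.22 and 0.13).

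The slope of level on GC content placed the 2 groups apart. It was 0.21, 0.20 and 0.15 (log2 per 10 points of GC content) in the catalytic mutant and 0.04, 0.01 and 0.003 in nCas9, so every catalytic mutant library lay above every nCas9 library. The exact 2-sided permutation p was 0.1, the smallest that 3 libraries against 3 allow. In the other groups, seBE under vehicle gave 0.06, 0.12 and -0.02, seBE under rapamycin 0.11, -0.03 and -0.17, intact BE under vehicle -0.21, -0.09 and -0.02, and intact BE under rapamycin -0.14, -0.07 and -0.16. Length told less: its slope was -0.07, -0.03 and -0.04 (log2 per doubling) in the catalytic mutant and -0.08, -0.09 and -0.05 in nCas9, with an exact p of 0.2. When a trend on length and GC content was removed from the counts, 241 genes were called, 124 higher and 117 lower, and 173 of them were among the 644. What part library chemistry or RNA quality had in these relations was not tested.

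**Figure D3:**
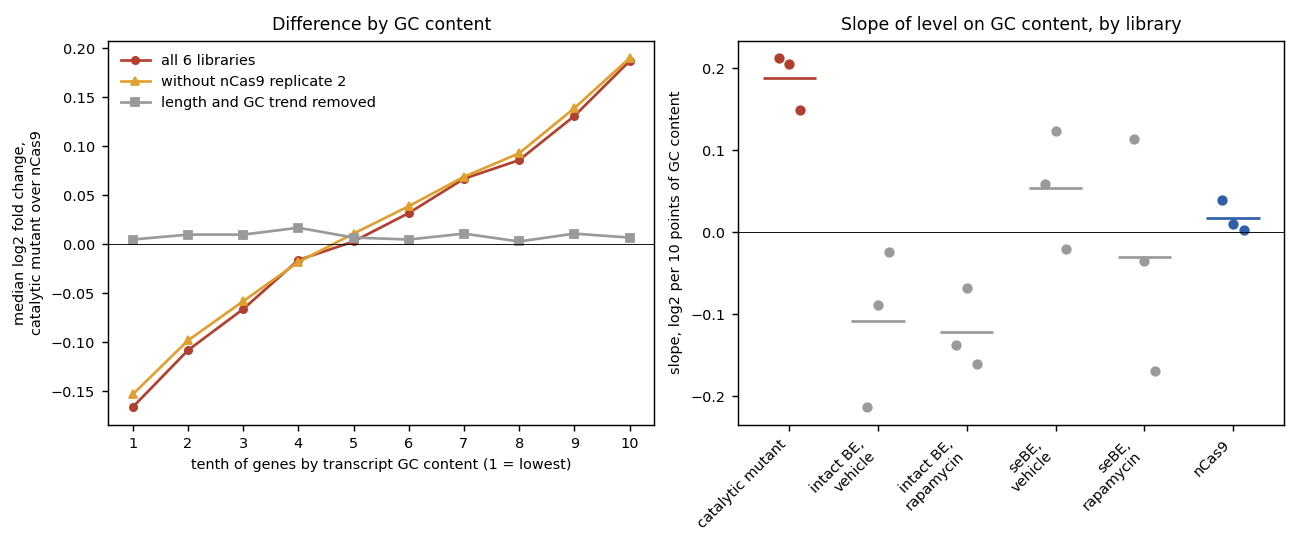
Left, median log2 fold change of the catalytic mutant over nCas9 (y) in 10 equal groups of genes by transcript GC content (x), with all 6 libraries, without nCas9 replicate 2, and with the length and GC trend removed. Right, slope of log2 level on GC content per 10 points (y) in each library by group (x), with a line at each group mean. Both sides use genes with an average log2 CPM of at least 3. The medians climb from -0.17 to 0.19, and the catalytic mutant slopes, 0.15 to 0.21, lie above those of nCas9, 0.003 to 0.04.

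Because of this, the calls of the catalytic mutant against nCas9 below are also read after the trend was removed. Members that then lost their call are named as such. Counts in a gene list are to be read against the shares over all tested genes, 2.24% called higher and 2.06% called lower. Of the 92 genes that held with each library left out, 63 were also called then, 31 higher and 32 lower. In 16 the call stood in all 6 fits with a library left out and the trend removed as well. These 16 were 11 genes lower in the catalytic mutant, which were P2rx3, Gpr141, Pkd2, Slirp, Asns, Ccr2, Gpnmb, Ndufc2, Cd28, Atp5k and Atf4, and 5 higher, which were Cebpe, Asap1, Mybbp1a, Rnps1 and Rpl17-ps10. They were picked out after their values were seen.

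**Figure D4:**
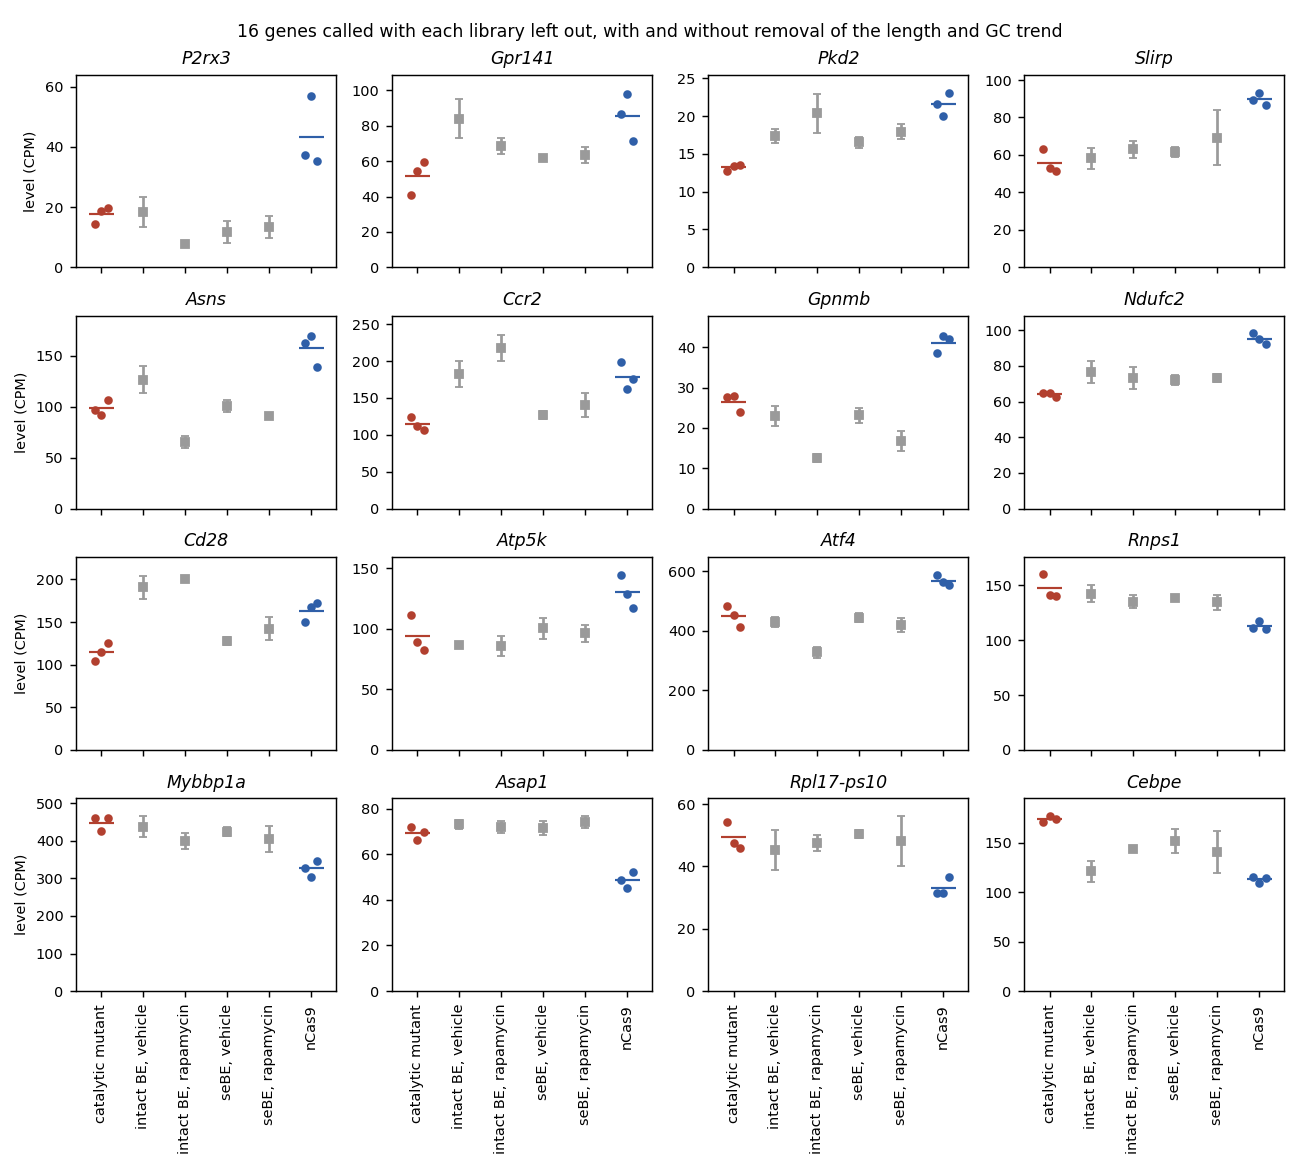
Level in CPM (y, from 0) of 16 genes in the 6 groups (x): points are the libraries of the catalytic mutant (red) and nCas9 (blue) with a line at the mean, and grey squares are means of the other groups with bars for the SD of 3 libraries. In each gene the red and blue points do not overlap, as in Asns with 92.0 to 106 CPM in the catalytic mutant and 139.5 to 170 CPM in nCas9.

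Asparagine synthetase, Asns, had the smallest adjusted p in the comparison. It stood at 97.0, 92.0 and 106 CPM in the catalytic mutant against 163, 170 and 139.5 CPM in nCas9, a log2 fold change of -0.68 ± 0.0883 (SE) with adjusted p = 8.3e-05. With the trend removed it was -0.62, with adjusted p = 4e-05, and over the fits with a library left out the highest adjusted p was 0.0018. Atf4, the transcription factor that activates Asns, had 484, 453 and 412 CPM in the catalytic mutant against 586, 566 and 554 CPM in nCas9 (log2 -0.34 ± 0.0695, adjusted p = 0.00423). Its difference was -0.42 after trend removal. Neither gene had overlapping libraries.

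Of the ATF4-linked enzymes of amino acid synthesis, some were lower. Of 17 tested members (18 in the table), 0 were called higher and 3 lower, with a median log2 fold change of -0.21, and with the trend removed 4 were lower with a median of -0.19. Besides Asns these were Cth, which makes cysteine from cystathionine, and Psat1, the aminotransferase of serine synthesis. Cth had 9.54, 13.7 and 14.4 CPM in the catalytic mutant against 23.9, 37.9 and 22.4 CPM in nCas9 (log2 -1.15 ± 0.228, adjusted p = 0.00396). Psat1 had 487, 459 and 518 CPM against 582, 592 and 573 CPM in nCas9 (log2 -0.25, adjusted p = 0.0179). Between 1 and 4 of the list were lower when a library was left out, the fewest without nCas9 replicate 2, and 1 was called higher without nCas9 replicate 3. Cth lost its call without nCas9 replicate 2 (adjusted p = 0.0545).

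The effectors of the integrated stress response gave 0 higher and 4 lower calls among 20 tested members of 23, with a median of -0.14, and 5 lower with the trend removed. Other fits also held higher calls in this list, 2 beside 6 lower with DESeq2 and 1 beside 4 lower with the 6 libraries alone. The 4 were Atf4, its partner Cebpg, the stress-induced chromatin protein Nupr1 and the pseudokinase Trib3, which feeds back on ATF4. Nupr1 had 4.91, 3.33 and 4.08 CPM in the catalytic mutant against 8.85, 11.98 and 8.89 CPM in nCas9 (log2 -1.27 ± 0.343, adjusted p = 0.0264). Trib3 had 7.23, 8.18 and 6.96 CPM against 15.9, 18.8 and 13.7 CPM in nCas9 (log2 -1.11 ± 0.309, adjusted p = 0.0352). These low genes were separated between the groups in every library. Cebpg had 57.6, 60.6 and 62.6 CPM against 74.5, 89.2 and 74.0 CPM in nCas9 (adjusted p = 0.00949). Without nCas9 replicate 2 only Atf4 of the 4 was still called, and Nupr1 reached adjusted p = 0.139 and Trib3 0.162. Ddit3, which encodes the stress factor CHOP, overlapped between the groups, at 20.8, 27.3 and 25.7 CPM against 34.3, 35.8 and 25.3 CPM in nCas9 (log2 -0.36, adjusted p = 0.304).

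Amino acid transporters, many of them under ATF4, gave 0 calls among 13 tested of 15, with a median of -0.10. The glutamine and alanine transporter Slc38a2 had 273, 292 and 293 CPM against 343, 333 and 308 CPM in nCas9 (log2 -0.20, adjusted p = 0.103), and Slc1a5 overlapped (log2 -0.10, adjusted p = 0.612). The cytosolic aminoacyl-tRNA synthetases, 19 tested, gave 1 lower call and 1 higher. Gars, the glycine enzyme, was lower (log2 -0.28, adjusted p = 0.0124; -0.30 with the trend removed). Vars, the valine enzyme, was called higher (log2 0.26, adjusted p = 0.0291), at 0.00 and not called once the trend was removed.

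Promoters were searched because ATF4 with a C/EBP partner binds a composite element and MYC binds an E-box. RefSeq promoters of build GRCm38.p6, 250 bases before to 50 after the start, were matched by symbol for 9917 of the 14985 genes, using the first window of a gene. The letters TGATGNAAN on either strand stood in 12 of 223 promoters of genes called lower (5.38%), in 4 of 269 of genes called higher (1.49%) and in 2.3% of all tested. The exact 95% intervals of the first 2 shares, 2.81 to 9.21% and 0.407 to 3.76%, overlap. Among the amino acid enzymes and stress effectors together they stood in 8 of 32 (25%). The motif CACGTG stood in 11.9% of promoters of genes called higher, 9.87% of those called lower and 10.2% of all. In the ribosome biogenesis and MYC-linked list CACGTG stood in 8 of 35 (22.9%), but in 2.86% when the 50 bases after the start were left out. These lists were drawn up around ATF4 and MYC, so high shares of the motifs in them are not separate evidence. Base composition of the promoters was not taken into account. A match is a description of letters, and binding was not measured.

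The 250 bases before the start are shown, 5′ to 3′ on the gene's strand, for 3 lower genes whose promoters hold the composite element and for 1 higher gene with the E-box, with the matched letters of either motif in capitals. Asns lies on the minus strand at chr6:7693210-7693459, Gars on the plus strand at chr6:55037751-55038000, Nupr1 on the minus strand at chr7:126625471-126625720 and Nop2 on the plus strand at chr6:125131633-125131882.
Asns: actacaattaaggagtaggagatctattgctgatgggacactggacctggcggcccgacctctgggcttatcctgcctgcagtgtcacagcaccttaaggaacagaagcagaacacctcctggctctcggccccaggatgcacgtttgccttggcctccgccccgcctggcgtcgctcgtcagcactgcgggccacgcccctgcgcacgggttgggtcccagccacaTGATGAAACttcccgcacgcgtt
Gars: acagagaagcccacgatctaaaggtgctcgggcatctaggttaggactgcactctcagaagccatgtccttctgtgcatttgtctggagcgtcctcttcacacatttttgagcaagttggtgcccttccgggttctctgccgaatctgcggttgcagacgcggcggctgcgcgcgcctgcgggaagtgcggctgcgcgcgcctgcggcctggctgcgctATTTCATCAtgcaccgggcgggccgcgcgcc
Nupr1: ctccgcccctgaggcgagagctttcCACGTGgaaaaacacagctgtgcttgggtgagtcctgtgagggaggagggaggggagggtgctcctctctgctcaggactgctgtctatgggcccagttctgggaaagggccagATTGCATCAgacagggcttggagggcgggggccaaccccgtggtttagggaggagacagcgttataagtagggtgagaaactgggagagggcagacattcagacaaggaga
Nop2: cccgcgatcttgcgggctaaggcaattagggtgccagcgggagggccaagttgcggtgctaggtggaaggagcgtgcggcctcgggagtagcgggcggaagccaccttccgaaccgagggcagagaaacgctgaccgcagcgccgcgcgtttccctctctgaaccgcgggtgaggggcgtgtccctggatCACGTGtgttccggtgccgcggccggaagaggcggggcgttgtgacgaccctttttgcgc
Counting the base before the start as -1, the element began at -23 in Asns, -31 in Gars and -111 in Nupr1, where an E-box also began at -225. In Nop2 the E-box began at -60. Matches after the start were seen in Trib3 (TTTACATCA from base 14) and in mouse Apobec1 (TGATGCAAA from base 1). The element also began at -187 in Ung (TTTACATCA), and neither Ung nor Apobec1 was called. E-boxes stood in the lower genes Dleu2 (-178) and Rpl23 (-3) too. They also stood in the higher genes Calr (-224), Eif4g1 (-54 and 16), Lig1 (37), Mybbp1a (41) and Parp1 (-49). Further E-boxes were in Cdk4 (4 matches), Cdk6, Rpa1 and Trim25.

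Some of the genes that build ribosomes rose in the catalytic mutant. Of 40 members of the ribosome biogenesis and MYC-linked list, all tested, 10 were called higher and 0 lower, with a median log2 fold change of 0.13, and with the trend removed 7 were higher and the median was again 0.13. Myc itself, the factor that drives these genes, had 215, 227 and 215 CPM in the catalytic mutant against 171, 176 and 179 CPM in nCas9 (log2 0.32 ± 0.0655, adjusted p = 0.00423). Mybbp1a, a nucleolar protein of ribosomal DNA transcription, had 461, 425 and 459 CPM against 329, 305 and 346 CPM in nCas9 (log2 0.46 ± 0.0728, adjusted p = 0.00061). Both held in every fit with a library left out, and neither overlapped. Nop2, an rRNA methyltransferase, had 172, 170 and 178 CPM against 140, 117 and 143 CPM in nCas9 (adjusted p = 0.00644), and Rrp1b, a processing factor, had a log2 fold change of 0.35 (adjusted p = 0.00993; 0.0777 with the trend removed). Between 2 and 10 members were called higher over the fits with a library left out, the 2 being without nCas9 replicate 2, and 1 was called lower in some other fits, among them DESeq2, upper quartile scaling and the fit without nCas9 replicate 3.

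Ribosomal protein genes went the other way. Among 78 tested genes of the cytosolic ribosome 0 were called higher and 22 lower, with a median of -0.15, and 65 of the 78 had a log2 fold change below 0. With the trend removed 12 were lower with a median of -0.10. Rps27a, which encodes a ubiquitin fusion, had 1307, 1118 and 1044 CPM in the catalytic mutant against 1600, 1723 and 1450 CPM in nCas9 (log2 -0.46 ± 0.0756, adjusted p = 0.000723). Rpl23 (log2 -0.41, adjusted p = 0.00206), Rps15a (-0.37, adjusted p = 0.00346) and Rps13 (-0.35, adjusted p = 0.00269) also separated the groups and held with each library left out. The list as a share of counts was 8.79, 7.94 and 7.67% in the catalytic mutant against 9.08, 9.31 and 8.52% in nCas9. The exact 2-sided permutation p for the share was 0.2, since 1 catalytic mutant library exceeded 1 of nCas9. Lower calls numbered 5 without nCas9 replicate 2 and 10 to 27 without any other single library. Ribosomal protein genes have many near-identical pseudogenes, and how reads with several matches were counted is not stated. Rpl17-ps10, a pseudogene of this family, was higher, at 54.3, 47.6 and 46.0 CPM against 31.5, 31.6 and 36.6 CPM in nCas9 (log2 0.57, adjusted p = 0.00393), and is uncertain for that reason.

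Among 44 tested translation factors 1 was called higher, a share of 2.27% against 2.24% over all genes, and 3 lower. The scaffold of cap-dependent initiation, Eif4g1, had 788, 750 and 740 CPM in the catalytic mutant against 556, 506 and 634 CPM in nCas9 (log2 0.43 ± 0.0776, adjusted p = 0.00203; 0.29 with the trend removed). Eif5b, Eif2s2 and Eif3e were lower by log2 fold changes of -0.37, -0.29 and -0.28, with adjusted p = 0.0335, 0.0191 and 0.0217, and none of these passed after trend removal. Spermidine synthase, Srm, a classic MYC target, had 164, 156 and 175 CPM against 122, 109 and 120.5 CPM in nCas9 (log2 0.50 ± 0.0795, adjusted p = 0.00061). Sat1, which breaks polyamines down, was lower (log2 -0.47, adjusted p = 0.00203; 0.126 with the trend removed), and these were the only calls among 13 tested polyamine genes. Cad, the enzyme that opens pyrimidine synthesis, had 199, 189 and 207 CPM against 149, 132 and 137 CPM in nCas9 (log2 0.51 ± 0.0831, adjusted p = 0.000706) and was the 1 call among 23 tested nucleotide synthesis genes. Mthfd1, the 1 call among 10 tested cytosolic one-carbon genes, was higher (log2 0.40, adjusted p = 0.00536). Srm, Cad and Mthfd1 stayed called with the trend removed, at 0.39, 0.31 and 0.31.

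**Figure D5:**
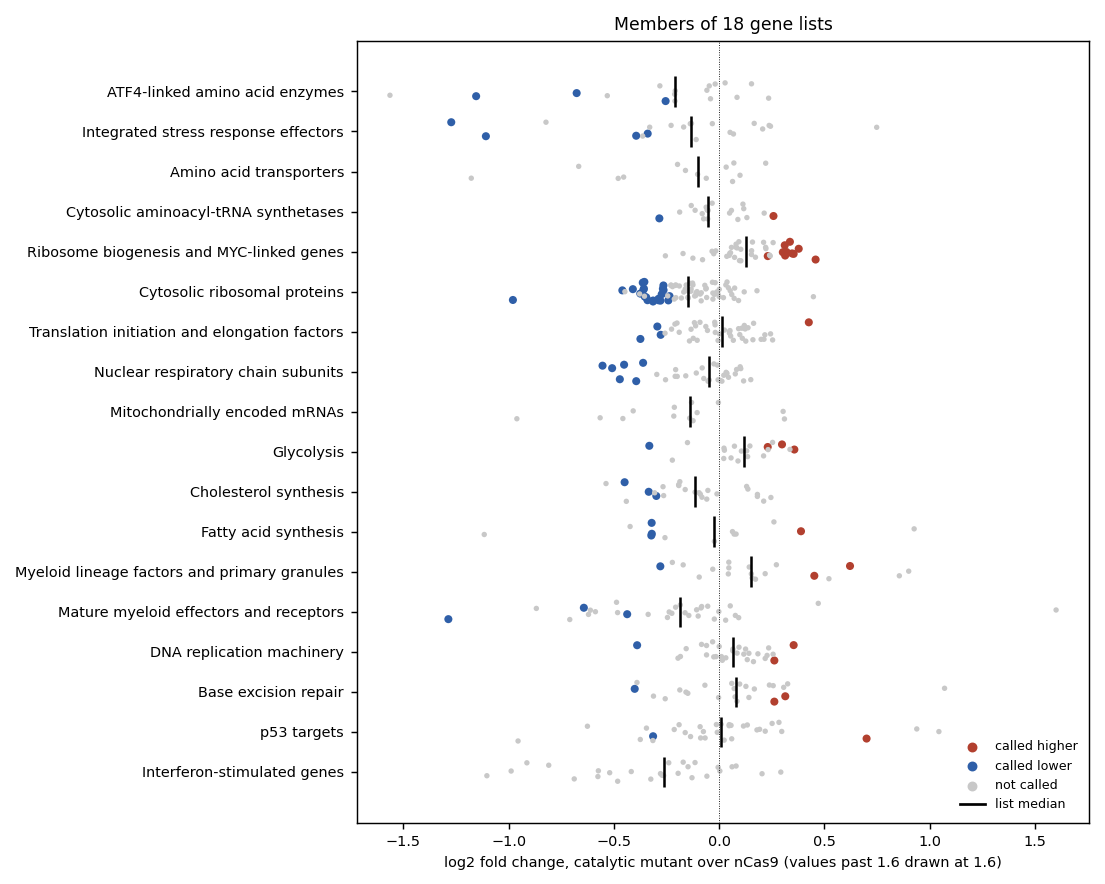
Log2 fold change of the catalytic mutant over nCas9 (x) for the tested members of 18 gene lists (y), each point a gene, red where called higher, blue where called lower and grey otherwise, with a black bar at the list median and values past 1.6 drawn at 1.6. The ribosome biogenesis list lies to the right, with a median of 0.13 and 10 red points, and the ribosomal protein list to the left, with a median of -0.15 and 22 blue points.

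Mitochondrial genes were lower in part. Of 32 tested nuclear genes for respiratory chain subunits 0 were called higher and 6 lower, with a median of -0.05. Cox7c, of complex IV, had 157, 152 and 124 CPM in the catalytic mutant against 222, 204 and 211 CPM in nCas9 (log2 -0.55 ± 0.0955, adjusted p = 0.00121). Uqcrb, of complex III, had a log2 fold change of -0.51 (adjusted p = 0.00323), Cox6c -0.45 (adjusted p = 0.00578) and Cox7a2 -0.36 (adjusted p = 0.00871). These encode very short subunits, and with the trend removed Cox6c was the 1 still called. Outside that list, Ndufc2 of complex I had 64.7, 64.8 and 62.3 CPM against 98.2, 95.2 and 92.3 CPM in nCas9 (log2 -0.57 ± 0.0825, adjusted p = 0.000165; -0.41 with the trend removed). Slirp, which stabilizes mitochondrial messenger RNAs, had 63.1, 53.1 and 51.6 CPM against 89.6, 93.2 and 86.4 CPM in nCas9 (log2 -0.68 ± 0.109, adjusted p = 0.00061; -0.57 with the trend removed). Atp5k, a subunit of ATP synthase named outside the naming rule, had 111, 89.3 and 82.2 CPM against 144, 129 and 117 CPM in nCas9 (log2 -0.47, adjusted p = 0.00442), and Pet100, a complex IV assembly factor, was lower too (log2 -0.65, adjusted p = 0.00423).

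The messenger RNAs of the mitochondrial genome gave 0 calls among 13. Their median was -0.14 with all libraries and 0.18 with the trend removed, so its sign turned with that choice. The share of counts from mitochondrial genes was 3.73, 5.47 and 4.39% in the catalytic mutant against 5.54, 5.33 and 4.43% in nCas9, and the groups overlapped (exact 2-sided permutation p = 0.4). Glycolysis gave 3 higher and 1 lower calls among 20 tested, with a median of 0.12. Eno1, Pfkl and Gpi1 were higher, by 0.30, 0.36 and 0.23 (adjusted p = 0.015, 0.0118 and 0.0291), while Pfkp, the platelet-type phosphofructokinase, was lower at 163, 169 and 160 CPM against 212, 219 and 188 CPM in nCas9 (log2 -0.33, adjusted p = 0.00564). Of the 4, Pfkp was the 1 called with the trend removed (log2 -0.37), and 0 members were called without nCas9 replicate 2.

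In lipid synthesis more genes were called lower than higher. Cholesterol synthesis gave 0 higher and 3 lower calls among 25 tested (12% lower, against 2.06% over all genes), with a median of -0.12. The 3 were Nsdhl (log2 -0.45, adjusted p = 0.0166), Msmo1 (-0.33, adjusted p = 0.0141) and Hmgcs1 (-0.30, adjusted p = 0.0492). None of these 3 was called with the trend removed (adjusted p = 0.125, 0.0645 and 0.146), when Pmvk, a mevalonate pathway kinase picked after its values were seen, was the 1 lower call (adjusted p = 0.0392). Fatty acid synthesis gave 1 higher and 3 lower among 13 tested of 15 (30.8% called, against 4.3% over all genes), with a median of -0.02. Fatty acid synthase, Fasn, had 584, 591 and 576 CPM in the catalytic mutant against 471, 395 and 472 CPM in nCas9 (log2 0.39 ± 0.0728, adjusted p = 0.00264), a call lost with the trend removed (adjusted p = 0.114). Of the desaturases and elongases that act after it, Scd2, Fads2 and Elovl6 were called lower. Scd2 had 573, 609 and 617 CPM against 738, 784 and 729 CPM in nCas9 (log2 -0.32, adjusted p = 0.0137). Fads2 and Elovl6 each had a log2 fold change of -0.32 (adjusted p = 0.0298 and 0.0345). None of the 3 held with each library left out, where the highest adjusted p was 0.107 for Scd2, 0.164 for Fads2 and 0.167 for Elovl6. Scd2 and Fads2 stayed called with the trend removed, at -0.38 and -0.44, and Elovl6 did not (adjusted p = 0.0741).

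Cebpe, the factor for late granulocyte differentiation, had 170, 177 and 174 CPM in the catalytic mutant against 115, 109 and 114 CPM in nCas9 (log2 0.62 ± 0.0857, adjusted p = 0.000134). Spi1, which encodes PU.1, had 222, 224 and 234 CPM against 160, 160 and 177 CPM in nCas9 (log2 0.45 ± 0.0888, adjusted p = 0.00346). Both stayed called with each library left out and with the trend removed, at 0.48 and 0.30. They were the 2 higher calls among 19 tested lineage factors and granule genes, beside 1 lower, Ms4a3, a granulocyte-monocyte precursor gene (log2 -0.28, adjusted p = 0.0366; -0.02 with the trend removed).

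The list of mature myeloid effectors and receptors gave 0 higher and 3 lower among 31 tested of 34 (2 lower with the trend removed), with a median of -0.19. Ccr2, the chemokine receptor that draws monocytes from marrow, had 125, 112 and 106 CPM in the catalytic mutant against 198, 162 and 175 CPM in nCas9 (log2 -0.64 ± 0.0902, adjusted p = 0.000134). P2rx3, an ATP-gated channel, had 14.5, 18.7 and 19.7 CPM against 37.4, 56.8 and 35.5 CPM in nCas9 (log2 -1.29 ± 0.232, adjusted p = 0.00347). Ccr1 was lower by a log2 fold change of -0.44 (adjusted p = 0.0386), a call lost with the trend removed. Other surface genes among the 16 were Gpr141, an orphan receptor of myeloid cells, and Cd28, known best as a costimulatory receptor of T cells. Gpr141 had 41.0, 54.6 and 59.3 CPM against 86.6, 98.0 and 71.3 CPM in nCas9 (log2 -0.72 ± 0.114), and Cd28 had 104, 115 and 125 CPM against 151, 167 and 172 CPM in nCas9 (log2 -0.51 ± 0.0813), both with adjusted p = 0.00061. Gpnmb, a glycoprotein of macrophage lysosomes, had 27.5, 27.8 and 24.0 CPM against 38.4, 42.7 and 42.1 CPM in nCas9 (log2 -0.63, adjusted p = 0.00393), and the cation channel gene Pkd2 had 12.8, 13.5 and 13.6 CPM against 21.6, 20.1 and 23.1 CPM in nCas9 (log2 -0.70, adjusted p = 0.00324). All of these genes except Ccr1 stayed called with each library left out.

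The MLL-AF9 program gave 1 call among 22 tested of 23, a share of 4.5% against 4.3% over all genes. Cd34, the progenitor antigen, had 365, 374 and 426 CPM in the catalytic mutant against 294, 315 and 357 CPM in nCas9 (log2 0.27, adjusted p = 0.0455; 0.38 with adjusted p = 0.00104 after trend removal). Among 17 tested genes of RAS-MAPK feedback 1 was called, Spred2, an inhibitor of RAS signalling (log2 0.36, adjusted p = 0.0321; not called with the trend removed, adjusted p = 0.111), and among early growth response and AP-1 genes 0 of 20 were.

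Genes of DNA damage and repair, which a deaminating editor could engage, were called in shares above and below the 4.3% over all genes. These were 6.06% of p53 targets, 12.5% of base excision repair, 12.5% of mismatch repair and 0% of homologous recombination, Fanconi and checkpoint genes. Cdkn1a, the p53 target that stops the cell cycle, overlapped between the groups at 146, 168 and 174 CPM in the catalytic mutant and 145, 151 and 174 CPM in nCas9 (log2 0.06 ± 0.0795, adjusted p = 0.769), and Mdm2 differed by 0.02 ± 0.0715 (adjusted p = 0.904). Ung, the uracil glycosylase, had 27.0, 21.9 and 30.4 CPM against 22.7, 24.0 and 28.3 CPM in nCas9 (log2 0.08 ± 0.131, adjusted p = 0.819). Of 33 tested p53 targets 1 was called higher, Phlda3 (log2 0.70, adjusted p = 0.0459), and 1 lower, Rps27l (log2 -0.31, adjusted p = 0.0133), with a median of 0.01. Base excision repair gave 2 higher, Parp1 (log2 0.31, adjusted p = 0.0121) and Lig1 (0.26, adjusted p = 0.0236), and 1 lower, the glycosylase Neil3 (-0.40, adjusted p = 0.0375), among 24. Mismatch repair gave 1 higher of 8, the exonuclease Exo1 (log2 0.30, adjusted p = 0.0402), and homologous recombination, Fanconi and checkpoint genes gave 0 of 31. With the trend removed none of these 3 lists and none of the p53 targets held a call.

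Among 12 tested APOBEC deaminases and cofactors 1 was higher, Khsrp, an RNA-binding protein (log2 0.38, adjusted p = 0.00461; not called with the trend removed, adjusted p = 0.157), and 1 lower, Cdadc1, a cytidine deaminase relative (log2 -0.44, adjusted p = 0.0179). Mouse Apobec1, related to the editor's deaminase, had 32.8, 29.0 and 25.2 CPM in the catalytic mutant against 36.5, 40.5 and 30.7 CPM in nCas9, and the libraries overlapped (log2 -0.31 ± 0.131, adjusted p = 0.181). Interferon-stimulated genes had the lowest median among the pathway lists, -0.26 (-0.29 with the trend removed), with 22 of 27 tested below 0 and 0 calls. Only 15 of these 27 averaged 5 CPM or more in the higher group, so many low genes enter that median. Their summed level was 425 to 489 CPM in the catalytic mutant and 474 to 501 CPM in nCas9, which overlap. NF-kB genes gave 2 higher of 19, Nfkb1 (log2 0.36, adjusted p = 0.0137; 0.41 with the trend removed) and Rela (0.32, adjusted p = 0.0381; 0.12 with adjusted p = 0.604 once the trend was removed).

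Replication genes gave 2 higher of 30, Mcm2 (log2 0.35, adjusted p = 0.00428) and Lig1, and 1 lower, Rfc4 (-0.39, adjusted p = 0.0473), whose libraries overlapped. With the trend removed Mcm2 alone of these was called. Mitotic genes gave 2 higher of 30, the kinase Plk1 (log2 0.33, adjusted p = 0.0246; not called with the trend removed, adjusted p = 0.151) and the kinesin Kif20a (0.33, adjusted p = 0.013), and 1 lower. That was Cdk1, the mitotic kinase, at 151, 154 and 148 CPM in the catalytic mutant against 178, 183 and 194 CPM in nCas9 (log2 -0.29, adjusted p = 0.0105; -0.31 with the trend removed). G1 cyclins and CDK inhibitors gave 0 of 21.

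In protein folding and turnover, ER chaperones gave 2 higher of 20, Hyou1 (log2 0.35, adjusted p = 0.0053) and Calr (0.23, adjusted p = 0.0496), both also called with the trend removed. Heat shock chaperones gave 0 of 14 and proteasome subunits 0 of 37. Of 15 tested RNF and HECT ubiquitin ligases 2 were higher, Smurf1 (log2 0.83, adjusted p = 0.0046) and Rnf144b (1.14, adjusted p = 0.0297; 0.055 with the trend removed). Rnf144b was low, at 5.93, 4.65 and 4.88 CPM against 3.45, 0.961 and 2.49 CPM in nCas9, and without nCas9 replicate 2 its adjusted p was 0.178. NRF2 redox genes gave 1 higher of 21, the transketolase Tkt (log2 0.30, adjusted p = 0.00885), and 1 lower, Txn1 (-0.37, adjusted p = 0.00712), and neither was called with the trend removed. Lysosome genes gave 1 of 30, Man2b1, the lysosomal mannosidase (log2 0.31, adjusted p = 0.00553; 0.0694 with the trend removed). Histone genes gave 1 lower of 53, Hist2h2be (log2 -0.87, adjusted p = 0.035; 0.0812 with the trend removed), and nuclear long noncoding RNAs and snoRNA hosts 0 of 14.

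The remaining genes with the largest lasting differences belong to no list. Lower in the catalytic mutant were Lilrb4a, an inhibitory receptor of myeloid cells, with 34.0, 37.0 and 32.6 CPM against 64.6, 65.7 and 57.2 CPM in nCas9 (log2 -0.85, adjusted p = 0.000858), Arl4a, a small GTPase (-0.98, adjusted p = 0.0069), and Dleu2, a long noncoding RNA that hosts microRNAs (-0.69, adjusted p = 0.001). Higher were the kinase Rps6ka2 (log2 0.59, adjusted p = 0.00323), the histone demethylase Kdm6b (0.56, adjusted p = 0.00303), Fam53b (0.55, adjusted p = 0.00592), the pre-rRNA factor Nol6 (0.53, adjusted p = 0.000723) and the adhesion receptor Adgrg1 (0.53, adjusted p = 0.00284). The anchoring protein Akap1 (log2 0.52, adjusted p = 0.00624), the lysosomal nuclease Pld3 (0.50, adjusted p = 0.00139) and the nucleoporin Pom121 (0.50, adjusted p = 0.00287) followed. Asap1, which activates the GTPase function of ARF proteins, had 72.1, 66.1 and 69.9 CPM against 48.6, 45.3 and 52.0 CPM in nCas9 (log2 0.51 ± 0.082, adjusted p = 0.00061). Rnps1, a splicing factor named outside the naming rule, had 160, 142 and 140 CPM against 111, 118 and 110 CPM in nCas9 (log2 0.38, adjusted p = 0.00323). Of those in this paragraph Kdm6b, Fam53b and Pom121 were not called with the trend removed.

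The active editor places these genes beside 2 further comparisons, which share libraries with the one above, so their values are set side by side without a test of likeness. Their values are given without trend removal. The GC slopes of intact BE under vehicle (-0.21, -0.09 and -0.02) lay below those of the catalytic mutant (0.21, 0.20 and 0.15) and of nCas9 (0.04, 0.01 and 0.003). Intact BE under vehicle against the catalytic mutant called 21% of tested genes (11.6% higher, 9.33% lower), and against nCas9 it called 23% (13.1% higher, 9.83% lower). Asap1 averaged 73.0 ± 2.14 CPM (SD, n = 3) in intact BE under vehicle, 69.4 ± 3.02 CPM in the catalytic mutant and 48.6 ± 3.36 CPM in nCas9, and the log2 fold change of intact BE was 0.08 over the catalytic mutant (adjusted p = 0.598) and 0.59 over nCas9 (adjusted p = 5.18e-06). Rnps1, Mybbp1a and Rpl17-ps10 were likewise called higher in intact BE than in nCas9 and not called against the catalytic mutant. P2rx3, Slirp, Gpnmb, Atp5k and Atf4 were called lower in intact BE than in nCas9, and were not called against the catalytic mutant either. Atf4 averaged 430 ± 16.6 CPM in intact BE under vehicle, 449 ± 36.1 CPM in the catalytic mutant and 569 ± 16.4 CPM in nCas9. A call missed in 1 of these comparisons does not show that the groups are alike.

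Cebpe, Ccr2 and Gpr141 showed the other order, with intact BE near nCas9 and away from the catalytic mutant. Cebpe averaged 121 ± 10.8 CPM (SD, n = 3) in intact BE under vehicle, 174 ± 3.22 CPM in the catalytic mutant and 113 ± 3.13 CPM in nCas9, and intact BE was lower than the catalytic mutant by a log2 fold change of -0.52 (adjusted p = 8.4e-05). Ccr2 averaged 182 ± 17.8 CPM in intact BE under vehicle, 114 ± 9.36 CPM in the catalytic mutant and 178 ± 18.3 CPM in nCas9, a log2 fold change of 0.67 for intact BE over the catalytic mutant (adjusted p = 1.43e-05). Gpr141 was higher in intact BE than in the catalytic mutant by 0.70 (adjusted p = 0.000101). Neither Cebpe, Ccr2 nor Gpr141 was called for intact BE against nCas9, at 0.10, 0.03 and -0.02. Pkd2 was called for intact BE over the catalytic mutant (log2 0.39, adjusted p = 0.0432) and not against nCas9 (-0.32, adjusted p = 0.0874). Transcript GC content was 61.5% in Cebpe, 39.4% in Ccr2, 38.9% in Gpr141 and 49.0% in Pkd2, against a median of 49.3% over all tested genes. What part GC content had in these orders was not tested.

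Asns, Ndufc2 and Cd28 were called in both comparisons, though Asns against nCas9 was not called without nCas9 replicate 2 (adjusted p = 0.0673). Asns averaged 127 ± 13.4 CPM in intact BE under vehicle, 98.4 ± 7.31 CPM in the catalytic mutant and 157 ± 15.8 CPM in nCas9 (SD, n = 3), so its lowest mean of the 3 was in the catalytic mutant. Ndufc2 lay in the same order, at 76.5 ± 6.35, 63.9 ± 1.37 and 95.2 ± 2.99 CPM in those groups. Cd28 was highest with intact BE, at 191 ± 13.7 CPM, against 115 ± 10.7 CPM in the catalytic mutant and 163 ± 11.2 CPM in nCas9. In seBE under vehicle Asns averaged 101 ± 6.02 CPM, Ccr2 127 ± 5.64 CPM, Cd28 128 ± 4.71 CPM and Cebpe 152 ± 12.1 CPM.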

How the data were processed

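PolyA-selected, directional mRNA libraries were sequenced. The deposited table holds raw counts per gene, whole numbers that the authors made. Per the submitters' processing notes, the tools were fastp 1.0.1, STAR 2.7.1a, SAMtools 1.9, featureCounts of Subread 2.0.3 and DESeq2, with build GRCm39. The annotation release, strand setting and handling of reads with several matches are not stated, so overlapping and antisense genes cannot be told apart.

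All 18 libraries were modelled together, with a mean for each of 6 groups, using edgeR 4.0.16 under R 4.3.3 (filterByExpr, TMM, robust quasi-likelihood F test, Benjamini-Hochberg adjustment over 14985 genes, threshold 0.05). The filter kept 99.93% of counts. A log2 fold change is the catalytic mutant over nCas9, its SE was taken from the F statistic, and CPM are counts scaled to TMM-adjusted totals. Symbols matched 52073 of 56748 IDs. The biological coefficient of variation was 13.3%. Replicates of a group differed beyond sampling noise. Permutation tests of single values were exact and 2-sided.

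Transcript length and GC content came from the longest GENCODE M21 transcript (build GRCm38), which covered 97.4% of genes. To remove the trend, a 4-degree-of-freedom spline on both was entered as an offset.

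The members and the 44 lists were chosen with earlier results of these data known. The naming rule took the 12 largest rises and the 12 largest falls from calls kept in all 6 fits with a library left out (no overlap, at least 5 CPM in the higher group, no predicted models), the 10 smallest adjusted p, up to 4 called members of each list in order of adjusted p, and Apobec1, Ung, Cdkn1a, Mdm2, Atf4, Asns, Ddit3 and Myc. The rule also took up to 2 abundant members of lists with 0 calls, which are given as counts except for the amino acid transporters. Alternatives were DESeq2 1.42.0, other filters and scalings, the 6 libraries alone, a replicate block, each library left out, and trend removal. Combinations of trend removal with the block or a left-out library were added after seeing the data. Tests of the slopes on GC content and length were not planned in advance.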

Additional observations from a re-analysis of the deposited data

How the results depend on the processing

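The number of genes called was not stable. DESeq2 called 1061 genes, the 6 compared libraries alone 423, and trend removal 241. Upper quartile scaling gave 308 higher and 360 lower, with fewer higher than lower. Deviations of same-numbered libraries correlated at 0.05, -0.01 and 0.05, and those of other pairs at -0.094 to 0.063. With the replicate block more genes were called than without it, 985 against 644. The block gave 763 in the 6 compared libraries alone, and 604 with the trend removed (327 higher and 277 lower). Whether replicate numbers pair the libraries is therefore not settled, and the main fit did not pair them. Over fits with 1 library left out, with or without the trend, the count ran from 37 to 748. Those with the trend removed gave 150, 215 and 86 without catalytic mutant replicates 1, 2 and 3, and 90, 37 and 494 without nCas9 replicates 1, 2 and 3. Members of the pathway lists called numbered 161 with DESeq2, 154 with the replicate block, 53 with the trend removed and 11 to 119 with a library left out. Intact BE against the catalytic mutant called 1662 to 2989 genes with a library left out. Signs turned in Cdkn1a (-0.0087 with the trend removed, -0.0080 with the block too) and Vars (-0.0025 and -0.0021). With a library left out, with or without the trend, values spanned 0, at -0.070 to 0.14 for Cdkn1a, -0.029 to 0.13 for Mdm2, -0.35 to 0.018 for Ms4a3, -0.41 to 0.027 for Rps27l, -0.036 to 0.21 for Ung and -0.033 to 0.29 for Vars. For intact BE against the catalytic mutant they spanned 0 at -0.22 to 0.012 for Atp5k, -0.087 to 0.0063 for Mybbp1a, -0.19 to 0.19 for P2rx3, -0.092 to 0.017 for Rnps1 and -0.023 to 0.15 for Slirp, and against nCas9 at -0.046 to 0.12 for Ccr2 and -0.13 to 0.093 for Gpr141. None of these was called under the setting that turned its sign. The cause of these changes was not tested. Leaving out a library also lowers the residual degrees of freedom. Depth limits low genes such as Rnf144b and Nupr1 most.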
